A study of Sus scrofa with 20 samples.

Results

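Metallothionein 1A (MT1A), thioredoxin (TXN) and thioredoxin-interacting protein (TXNIP) were followed in pig kidney after neurologic death (ND). Every probe set whose only platform gene symbol is one of these names was taken, which gave 4 of the 23999 probe sets tested. They were 1 probe set for MT1A , 2 for TXN, a brighter and a dimmer one, and 1 for TXNIP. A further probe set that carries MT1A, TXN or TXNIP beside another symbol was not used. All 4 read above the background level on all 20 arrays.

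RNA from the kidneys of 20 pigs was hybridised to 1-colour expression arrays, and each animal number has 1 array. In the 10 controls the surgery was a burr hole, catheters and anaesthesia, and the 10 ND animals had the same preparation and then a subdural balloon that was inflated to bring about ND. All animals were then kept on the ventilator for 6 h, received 0.9% saline in boluses of 2 cc/kg where the mean arterial pressure required it (floor 35 mmHg), and gave kidney tissue at laparotomy. Breed, sex and age are not given in the labels. The controls had also been operated on and anaesthetised, so no undisturbed kidney enters the comparison. Animals are named by group and number, as in ND_47.

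Metallothioneins are small proteins rich in cysteine that bind zinc, copper and cadmium and take up oxidants. Their genes are induced through metal-responsive and glucocorticoid-responsive elements. Thioredoxin reduces disulphide bonds in other proteins and is itself reduced by thioredoxin reductases. TXNIP, an alpha-arrestin, binds reduced thioredoxin, restrains glucose uptake and is strongly induced by glucose through the transcription factors MondoA and ChREBP. In the kidney metallothioneins are known for binding metals in the tubule, and TXNIP is known mainly from work on high glucose and diabetic kidney disease.

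MT1A and TXNIP fell in ND kidneys, by 2.80-fold and 1.83-fold, while neither TXN probe set passed the test. Values are log2 signals per probe set, so a difference of 1 on this scale is a doubling of signal. Differences are ND minus control with 10 animals per group. The test was limma, its p-values were adjusted by Benjamini-Hochberg across the 23999 probe sets, and the threshold was 0.05. Of all probe sets tested, 7.13% were called changed at this threshold, 3.33% lower and 3.80% higher in ND.

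MT1A had the larger fall. In ND its lowest, median and highest log2 signals were 12.20, 12.99 and 14.13, and in controls they were 12.94, 14.69 and 15.46. All 10 ND animals lay under the control mean, 4 of them lay under every control, and 8 controls lay above every ND animal. The groups overlapped through the low controls Control_134 (12.94) and Control_199 (13.68) and the high ND animals ND_01 (14.13) and ND_22 (14.04). ND animals averaged 13.11 ± 0.69 (SD, n = 10) and controls averaged 14.60 ± 0.80 (SD, n = 10). The difference was -1.48 ± 0.32 (SE; 95% interval -2.16 to -0.80), with a limma adjusted p of 0.00895.

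Animal numbers were not balanced between the groups. Numbers up to 100 were carried by 7 ND animals and 1 control, and numbers from that of Control_184 upwards by 3 ND animals and 5 controls. With a term for numbers up to 100 the MT1A difference was -1.70 (limma adjusted p = 0.0397). Among the animals numbered from Control_184 upwards it was -1.55, with a limma adjusted p of 0.200 over all probe sets and an exact two-sided permutation p of 0.0357, where the smallest possible is 0.0179. The fall of MT1A was therefore as large within that range of numbers as in all animals.

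The MT1A signal may include transcripts of related genes, since the _s_at ending of the probe set marks probes shared by several transcripts. In the RefSeq gene table for Sscrofa11.1, MT1A lies in a run that also holds MT4, MT3, MT-2B and MT1D. The protein-coding genes LOC100739663 and LOC102166944 lie between MT1D and MT1A, and no probe set here has either as its only symbol. MT-2B and MT3 were the other metallothionein genes with a probe set of their own here. The metal list spells the first as MT2B, which matched no platform symbol, so the list counts below leave MT-2B out. It was chosen after its values were seen.

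**Figure D1:**
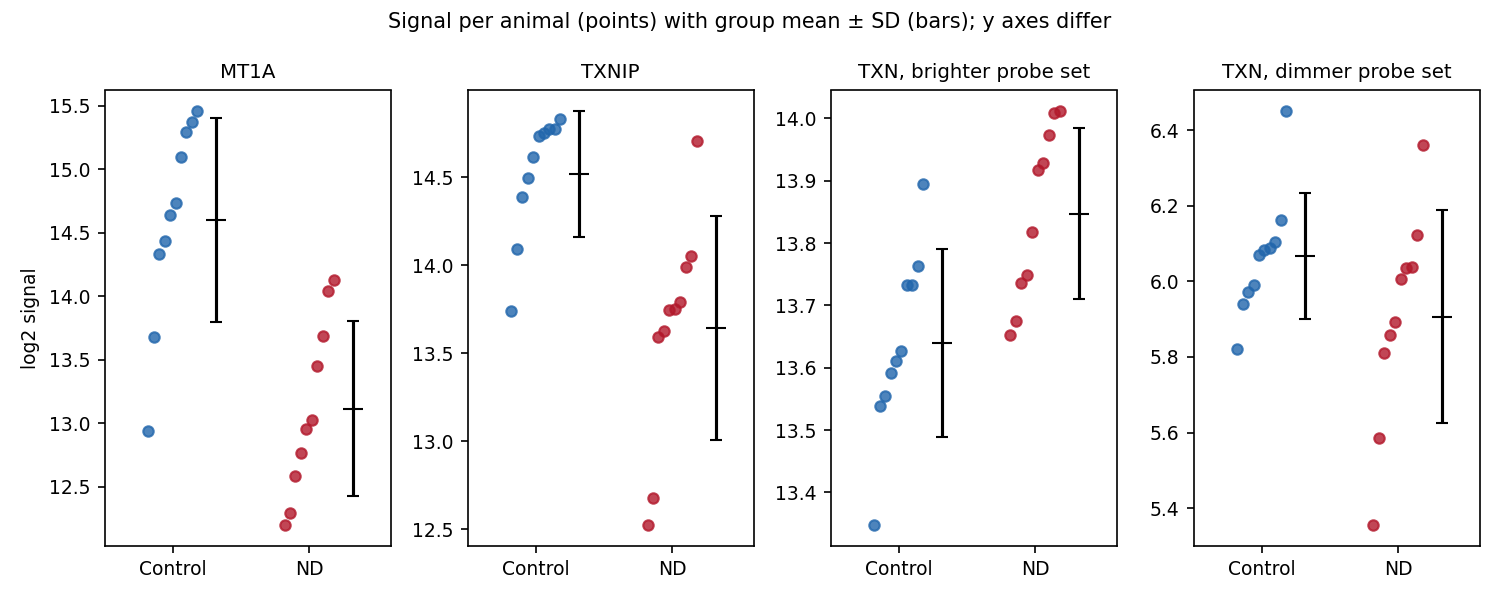
Log2 signal of each animal for the 4 probe sets, controls in blue and ND in red, with the group mean and SD as a bar beside the points. The y axes differ between panels. MT1A (means 14.60 and 13.11) and TXNIP (means 14.52 and 13.64) sit lower in ND, with overlap, and the TXN probe sets differ by 0.21 and -0.16.

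MT-2B fell together with MT1A. Its lowest, median and highest signals were 11.01, 11.99 and 13.02 in ND and 11.66, 13.51 and 14.22 in controls. Again Control_134 and Control_199 were the lowest controls, at 11.66 and 12.10. The MT-2B difference was -1.26 ± 0.34 (SE), with a limma adjusted p of 0.0274, and the call was lost without ND_86, ND_92, Control_155, Control_157 or Control_190 (adjusted p up to 0.0537). In 11 other settings the MT-2B difference ran from -1.38 to -1.12, and the call was kept in 7 (limma adjusted p up to 0.35). MT3, known mainly from brain, ran from 7.03 to 9.02 in ND and from 6.12 to 10.13 in controls, a difference of -0.88 ± 0.42 (SE) that did not pass (limma adjusted p = 0.170). MT3 passed without Control_199, whose MT3 signal of 6.12 was the lowest of all animals (adjusted p = 0.0246). The difference between MT1A and MT-2B in their response, -0.23, was not distinguishable from 0 (permutation test, adjusted p = 0.446 over 5 pairs chosen after values were seen).

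Among controls MT1A and MT-2B varied together, with Pearson r = 0.91 and Spearman rho = 0.78 over 10 animals, and r stayed between 0.83 and 0.95 when each control was left out. Among ND animals r was 0.35, and 0.74 without ND_47. That animal combined the highest ND signal of MT-2B (13.02) with a low MT1A signal (12.29). MT1A and MT3 had r = 0.70 among controls (0.65 to 0.85 with each animal left out) and -0.38 among ND animals (-0.54 to -0.19, the last without ND_22). These values describe genes picked for their kinship, and no test of them was made.

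TXNIP was the other member that fell. Its lowest, median and highest signals were 12.52, 13.75 and 14.70 in ND and 13.74, 14.67 and 14.83 in controls. Of the 10 ND animals 9 lay under the control mean, the exception being ND_92 at 14.70, and ND_193 (12.52) and ND_22 (12.68) stood lowest. The lowest controls were Control_199 (13.74) and Control_157 (14.09), the other 8 lay between 14.39 and 14.83, and the groups overlapped. ND animals averaged 13.64 ± 0.64 (SD, n = 10), while controls averaged 14.52 ± 0.36 (SD, n = 10). The difference was -0.87 ± 0.22 (SE; 95% interval -1.34 to -0.40), with a limma adjusted p of 0.0220.

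With the term for animal numbers the TXNIP difference was -1.10 (limma adjusted p = 0.0473). Among animals numbered from Control_184 upwards it was -1.09, and the limma adjusted p was 0.272 over all probe sets (exact two-sided permutation p = 0.0536). The control signals of TXNIP and MT1A, up to 14.83 and 15.46, lie near the upper end of the arrays' range, where the highest value on any array was 16.2.

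TXN itself moved little, and its probe sets did not move alike. The brighter probe set ran from 13.65 to 14.01 in ND, with a median of 13.87, and from 13.35 to 13.89 in controls, with a median of 13.62. All 10 ND animals lay above the control mean, but the ranges overlapped. The difference was 0.21 ± 0.06 (SE; 95% interval 0.07 to 0.34), a 1.15-fold higher signal, and it missed the threshold (limma adjusted p = 0.0535). It passed without ND_193, ND_194, ND_198 or Control_157 (lowest adjusted p 0.0274).

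The lowest ND signals of the brighter TXN probe set were those of ND_193 (13.65) and ND_194 (13.68), both high animal numbers. With the term for animal numbers the difference was 0.09 (limma adjusted p = 0.679). Among animals numbered from Control_184 upwards it was 0.16, with no overlap between the 3 ND animals and the 5 controls (exact two-sided permutation p = 0.0357; limma adjusted p = 0.353). Of all probe sets, 9.45% did not overlap in this smaller comparison. With all arrays brought to a common median it was 0.12 (limma adjusted p = 0.0974), since array medians were 0.09 higher in ND.

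The dimmer TXN probe set ran from 5.36 to 6.36 in ND and from 5.82 to 6.45 in controls. Its difference was -0.16 ± 0.10 (SE; 95% interval -0.37 to 0.05; limma adjusted p = 0.268), and 8 of 10 ND animals lay under the control mean. The TXN probe sets thus had opposite signs, and the brighter minus the dimmer signal was 0.37 higher in ND than in controls (permutation adjusted p = 0.00415 over 5 pairs chosen after values were seen; 0.0595 among animals numbered from Control_184 upwards). No direction is therefore given for TXN as a gene.

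The members differed from each other in their response. MT1A minus TXN, taken within each array from the brightest probe sets, differed by -1.69 between ND and controls, and TXN minus TXNIP differed by 1.08 (permutation tests with 100000 resamples, adjusted p = 0.000315 for each over 3 pairs). MT1A minus TXNIP differed by -0.61 (permutation adjusted p = 0.136), so a difference in size between the falls of MT1A and TXNIP was not shown. That last difference passed without ND_22 or without Control_134 (lowest adjusted p 0.0333).

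No relation between the members across animals passed a test. Within ND the correlation of MT1A with TXNIP was r = 0.04 (rho = 0.22), and within controls r = 0.13 (rho = 0.03), each over 10 animals. MT1A and TXN had r = -0.18 (rho = -0.25) in ND and 0.36 (rho = 0.35) in controls. TXN and TXNIP had r = 0.27 (rho = 0.18) in ND and -0.09 (rho = 0.07) in controls. Over the 6 relations the permutation tests gave high adjusted values (adjusted p = 0.922 for each r and 0.946 for each rho). Without the 2 animals farthest from the median of the first gene, r ranged from -0.39 to 0.63.

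The genes that varied most like each member were sought among 5640 other genes above background, by Pearson r over the 20 arrays after group means were removed. These are the highest of many values and are given as a description. TXNIP was followed by CHTOP (0.79), an mRNA export factor, PDK4 (0.73), the kinase that shuts down pyruvate dehydrogenase, ARRDC4 (0.71), another alpha-arrestin induced by glucose, CXHXorf56 (0.69) and the spindle protein gene ZNF207 (0.68). PDK4 differed by -2.38 between groups, in the same direction as TXNIP, whereas CHTOP (0.16), CXHXorf56 (0.03) and ZNF207 (-0.06) differed little and did not pass.

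ARRDC4 parted from TXNIP between the groups. Its lowest, median and highest signals were 6.58, 7.83 and 8.99 in ND and 6.71, 7.20 and 7.53 in controls. The difference was 0.64 ± 0.26 (SE) and did not pass (limma adjusted p = 0.121), except without ND_193 (adjusted p = 0.0482). TXNIP minus ARRDC4 differed by -1.52 between ND and controls (permutation adjusted p = 2.5e-05 over 5 pairs chosen after values were seen, which rests on the smallest p that 100000 resamples can give).

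Within ND the same pair varied together. There TXNIP and ARRDC4 had r = 0.81 and rho = 0.89 over 10 animals, with r between 0.72 and 0.91 when each animal was left out, and ND_193 and ND_22 were the lowest for both. Among controls r was 0.26, and 0.04 to 0.63 with each animal left out, the highest without Control_199. PDK4 and TXNIP had r = 0.71 in ND and 0.81 in controls, with rho = 0.54 in each. PDK4 fell further than TXNIP, the difference between them being 1.51 (permutation adjusted p = 2.5e-05 over the same 5 pairs, again from the smallest possible p).

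**Figure D2:**
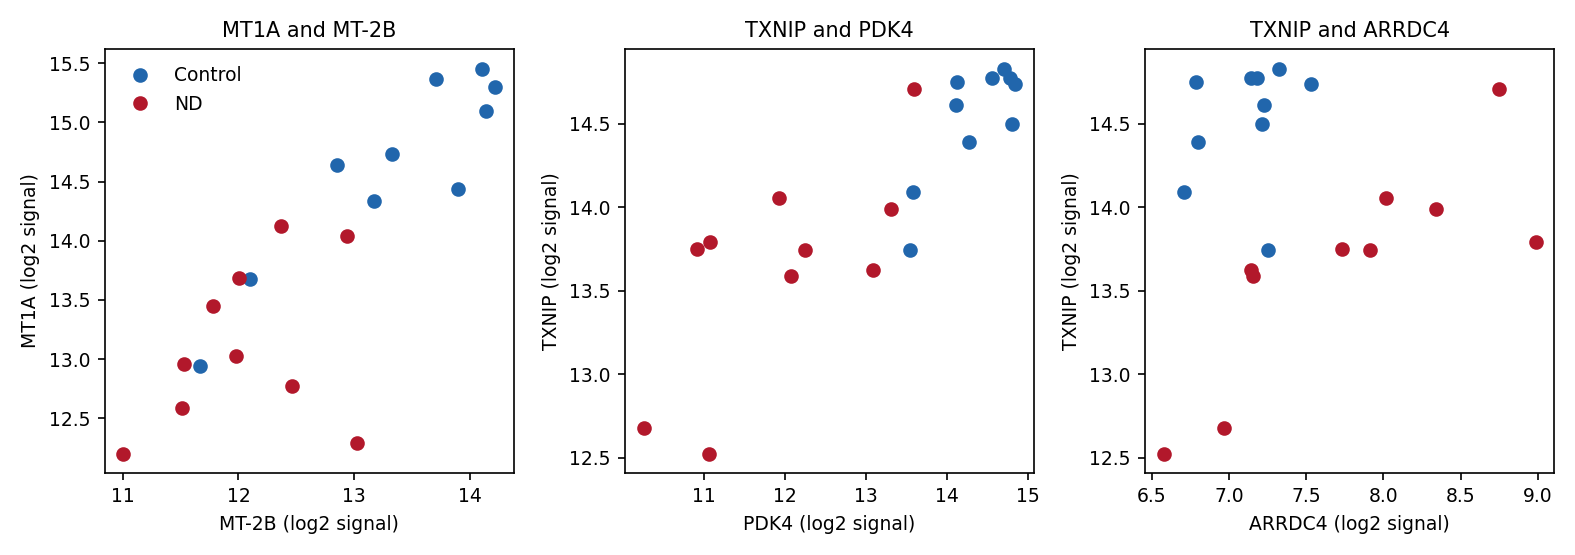
Log2 signals per animal of MT1A against MT-2B, TXNIP against PDK4 and TXNIP against ARRDC4, controls in blue and ND in red. MT1A and MT-2B lie along a line among controls (r = 0.91) with ND_47 off it, and in the right panel the ND animals form a rising band (r = 0.81), most of it below the controls.

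The genes nearest to MT1A by the same measure were PCID2 (0.72), an mRNA export gene, the dynein light chain gene DYNLT3 (0.72), the ubiquitin-like gene UBD (0.71), JCHAIN (0.70), the joining chain of secreted antibodies, and the granzyme gene GZMH (0.70). MT-2B came next at 0.69. UBD rose by 1.80 and GZMH by 1.05 (limma adjusted p = 0.00370 and 0.0446), while PCID2 fell by 0.49 on the log2 scale (adjusted p = 0.00145). Among ND animals MT1A had r = 0.78 with UBD and 0.51 with GZMH, and among controls 0.66 and 0.91, each over 10 animals. Control_134, the lowest control for MT1A, was also the lowest for UBD (5.39) and for GZMH (2.76, under the background level). How far these r values rest on that animal was not tested. By these values MT1A went with UBD and GZMH among animals of a group and against them between groups.

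TXN, by its brighter probe set, varied most like RPL27 (0.85), RPS6 (0.82) and RPL13 (0.81), which encode ribosomal proteins, SBDS (0.82), needed for ribosome maturation, and EFEMP2 (0.82), an elastic fibre protein. None of these 5 passed the test between groups, with differences from -0.07 to 0.17. Points in these comparisons share the arrays and their scaling.

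Of the 23 measured genes of the thioredoxin system, TXN and TXNIP included, 2 fell, 1 rose and 20 did not pass. For the 21 genes beside these members 1 fell, 1 rose and 19 did not pass. Among all 6765 genes, by their brightest probe set, 9.99% were called, 4.55% lower and 5.44% higher. The list median was -0.02, as was the median of all genes. Beside TXNIP, MSRB1, a selenoprotein that repairs oxidised methionine, fell by 0.53 on the log2 scale (± 0.12, SE; limma adjusted p = 0.00888). PRDX2, a cytosolic peroxidase that thioredoxin reduces, rose by 0.31 ± 0.09 (SE; limma adjusted p = 0.0406), a call lost on leaving out any of 11 animals (ND_22, ND_47, ND_86, ND_92, ND_100, Control_02, Control_134, Control_155, Control_156, Control_184 or Control_199; adjusted p up to 0.0734). PRDX2 kept its call in 4 of 11 other settings and lost it in 7, among them the common median, array weights, the animal number term and the animals numbered from Control_184 upwards.

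The reductases gave mixed readings. TXNRD1, the cytosolic thioredoxin reductase, differed by 0.37 ± 0.22 (SE; limma adjusted p = 0.260) by its brightest probe set and by 0.45 by the next, while its dimmest probe set differed by -0.89 and passed (limma adjusted p = 0.0104). TXNRD3 differed by -0.06 and mitochondrial TXN2 by -0.26 (limma adjusted p = 0.840 and 0.0686). TXN2 passed without ND_198, Control_156 or Control_184 (lowest adjusted p 0.0331). The glutaredoxin GLRX, which uses glutathione for the same chemistry, was at -0.88 (limma adjusted p = 0.0505) by its brighter probe set and at -1.40 (limma adjusted p = 0.00750) by the other. The brighter GLRX probe set passed without ND_22, ND_92, ND_100 or Control_199 (lowest adjusted p 0.0252). Among the other peroxiredoxins PRDX1 (-0.08), PRDX3 (-0.02), PRDX4 (0.08), PRDX5 (-0.31) and PRDX6 (0.13) did not pass.

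**Figure D3:**
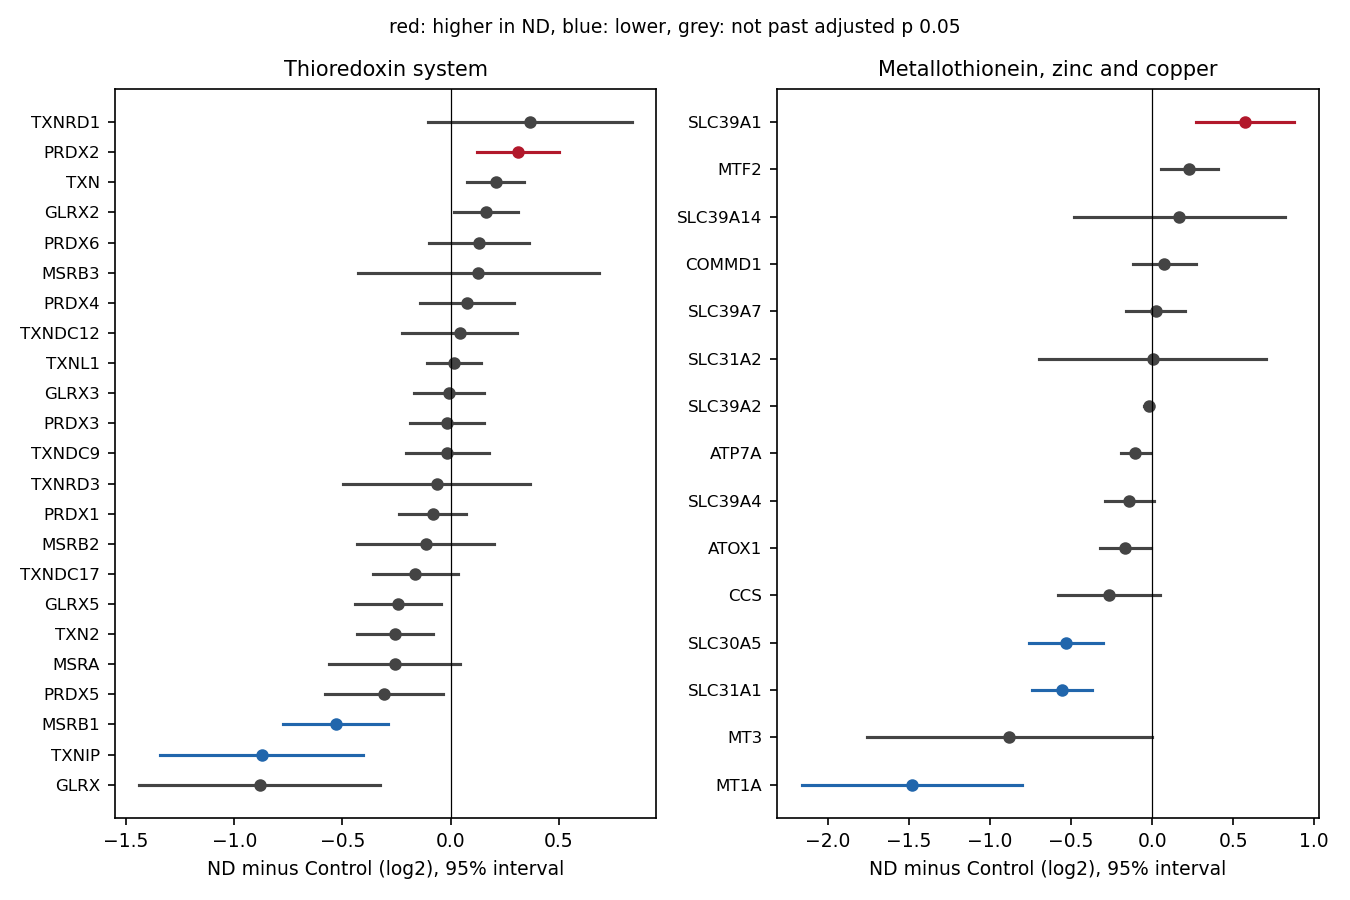
ND minus control difference (log2) with its 95% interval for the measured genes of the thioredoxin list (left) and of the metallothionein, zinc and copper list (right), by the brightest probe set. Red genes were higher and blue genes lower in ND at an adjusted p under 0.05, and grey genes did not pass. GLRX (-0.88) has as large a difference as TXNIP (-0.87) but a wider interval.

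Among genes of metal handling, 3 of 15 measured genes fell, 1 rose and 11 did not pass. Without MT1A 2 of 14 genes fell, 1 rose and 11 did not pass, beside 9.99% of all genes called. MT-2B, which fell, is not in these counts because of its spelling in the list. The list median was -0.10, or -0.06 without MT1A, and the median of all genes was -0.02. Beside MT1A, the copper importer SLC31A1 fell by 0.55 on the log2 scale (± 0.09, SE; limma adjusted p = 0.000887), and SLC30A5, which moves zinc into the secretory pathway, fell by 0.53 (± 0.11, SE; limma adjusted p = 0.00582). SLC39A1, a zinc importer of the cell surface, rose by 0.57 ± 0.14 (SE; limma adjusted p = 0.0204), and its dimmer probe set rose by 0.97. The brighter SLC39A1 probe set kept its call in 7 of 11 other settings. The metal sensor MTF1 and the zinc exporter SLC30A1 are not analysed here.

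Of 9 measured arrestin domain and glucose-sensing genes 2 rose, 2 fell and 5 did not pass, with a list median of 0.08. Without TXNIP 2 of 8 genes rose, 1 fell and 5 did not pass, with a median of 0.18. Among all genes 9.99% were called. The glucose transporter SLC2A2 fell by 1.82 on the log2 scale (± 0.41, SE; limma adjusted p = 0.0104) beside TXNIP. ITCH, the ubiquitin ligase known to mark TXNIP protein for breakdown, rose by 0.27 ± 0.07 (SE; limma adjusted p = 0.0232). ARRB2 (beta-arrestin 2) rose by 0.46 ± 0.11 (SE; limma adjusted p = 0.0145). Of 11 other settings ITCH kept its call in 6, and SLC2A2 and ARRB2 kept theirs in 7 each. MLXIP and MLXIPL, which encode MondoA and ChREBP, are not analysed here.

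The NRF2 and glutathione lists are read beside the 9.99% of all genes called. Of 22 NRF2 targets and oxidative stress genes 1 fell and none rose (limma): HMOX1, the haem oxygenase gene, was at -1.09 ± 0.26 (SE; adjusted p = 0.0155). HMOX1 kept its call in 7 of 11 other settings. Other NRF2 targets, NQO1 (-0.14), GCLM (-0.15) and GCLC (0.57, limma adjusted p = 0.0697), did not pass. GCLC, which makes the first step of glutathione synthesis, was measured by further probe sets, of which the next brightest rose by 0.84 (limma adjusted p = 0.0464) and the one after it was at 0.72 (limma adjusted p = 0.0803). The brightest GCLC probe set passed without ND_47 or Control_02 (lowest adjusted p 0.0317), and the list count was 2 without either, as it was without ND_100. Of 19 glutathione genes 1 fell, CTH, which makes cysteine from cystathionine, by 0.94 on the log2 scale (± 0.19, SE; limma adjusted p = 0.00527). Glutathione reductase GSR differed by 0.34 (limma adjusted p = 0.148), and passed without ND_47 (adjusted p = 0.0469), when the list count became 2. The list medians were -0.04 and -0.10.

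MT1A and TXNIP also stand in the list of glucocorticoid targets, where 14 of 21 measured genes fell, 1 rose and 6 did not pass. Without these members 12 of 19 genes fell, 1 rose and 6 did not pass. Among all genes 4.55% fell and 5.44% rose. The median of the other 19 genes was -0.80, against -0.02 for all genes. Both members lay inside the range of this list, with FKBP5, the co-chaperone of the glucocorticoid receptor, at -3.32 and TSC22D3, which encodes GILZ, at -2.26, while FOXO1 was at -0.62. FKBP5 showed no overlap between groups, as did 0.483% of all probe sets, whereas MT1A and TXNIP overlapped. CDO1, a cysteine-degrading enzyme, was above background in 4 of 10 ND arrays and in all controls, so its ND level is in part only a bound and it was at least 42.1-fold lower. PER1 (-2.56), KLF9 (-2.51), ANGPTL4 (-2.47), PDK4 and SGK1 (-1.46) also fell, with larger differences than that of TXNIP. The receptor gene NR3C1 was the one that rose (0.85). This list was written with earlier results of these data known and gives no independent evidence of its direction. FKBP5 and MT1A had r = 0.17 among ND animals and -0.15 among controls. FKBP5 and TXNIP had r = -0.67 among ND animals and 0.67 among controls, each over 10 animals and given as a description.

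**Figure D4:**
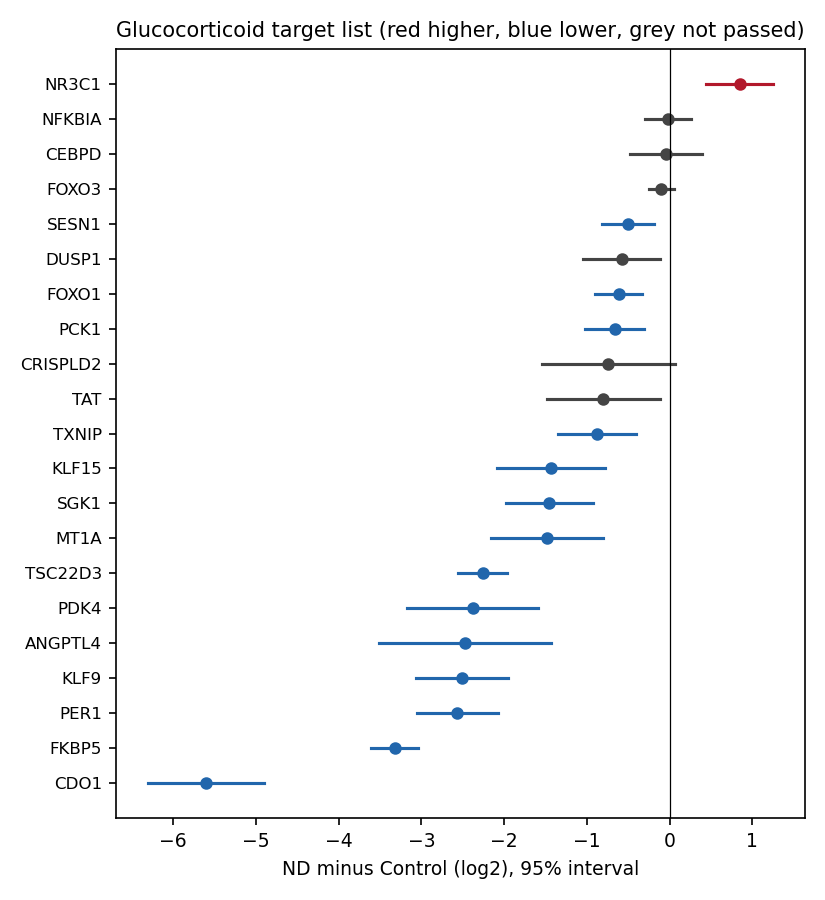
ND minus control difference (log2) with its 95% interval for the 21 measured genes of the glucocorticoid target list, by the brightest probe set. Blue genes were lower, red genes higher in ND, and grey genes did not pass. MT1A (-1.48) and TXNIP (-0.87) lie inside the range of the list. The point of CDO1 (-5.61) rests on ND signals at background in 6 of 10 arrays and is no exact size.

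In whole kidney, fewer cells of a type and less RNA per cell cannot be told apart. The tissue carried proximal tubule markers, with LRP2 at a mean of 13.35 and AQP1 at 13.02 in controls, while of 7 adipose and perirenal markers ADIPOQ, CYP17A1 and STAR read at background on all arrays. In that list FABP4, a fatty acid binding protein of fat and endothelium, was above background on all 20 arrays and fell by 0.89 on the log2 scale (limma adjusted p = 0.0160), and LPL and LEP were also above background on all arrays, with differences of -0.16 and -0.02. The list means ran from 3.28 to 3.71 in ND and from 3.43 to 3.77 in controls. Of 10 proximal tubule markers 4 fell, SLC2A2, HNF4A, SLC7A9 and PCK1, with a median difference of -0.37. The mean log2 level of the list ran from 10.10 to 11.81 in ND and from 11.56 to 12.07 in controls. For comparison, 4.55% of all genes fell and 5.44% rose, with a median of -0.02. The 4 markers of tubule segments beyond the proximal one did not pass, but their median was lower, at -0.50. Their list means were 7.05 to 7.94 in ND and 7.51 to 8.12 in controls, with SCNN1A at background on all arrays. Of 11 endothelial markers 1 rose, with list means of 5.74 to 7.23 in ND and 5.97 to 6.33 in controls, and KDR at background on all arrays. The 3 podocyte and 4 red cell markers did not pass, with the red cell marker HBE1 at background on all arrays. Of 12 leukocyte markers 4 rose and 2 fell, with list means of 3.53 to 4.77 in ND and 3.76 to 4.29 in controls, and ITGAM, S100A8 and S100A12 at background on all arrays. The part of these cell types in the falls of MT1A and TXNIP was not tested.

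Array medians ran from 5.09 to 5.35 and were 0.09 higher in ND, while hybridisation spikes were 0.27 lower in ND. Both passed (permutation adjusted p = 0.0159 for each over 5 array measures). The difference between 3' and 5' probe sets of GAPDH, a sign of RNA quality, averaged 1.67 ± 0.17 (SD, n = 10) for ND arrays and 1.85 ± 0.27 (SD, n = 10) for control arrays, which did not pass (permutation adjusted p = 0.145). With all arrays brought to a common median, MT1A was at -1.57 and TXNIP at -0.96 (limma adjusted p = 0.00446 and 0.00768). That setting called 8789 probe sets changed. The part of the spikes and of RNA quality in the results was not tested. The number of arrays limits the precision of all values.

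**Figure D5:**
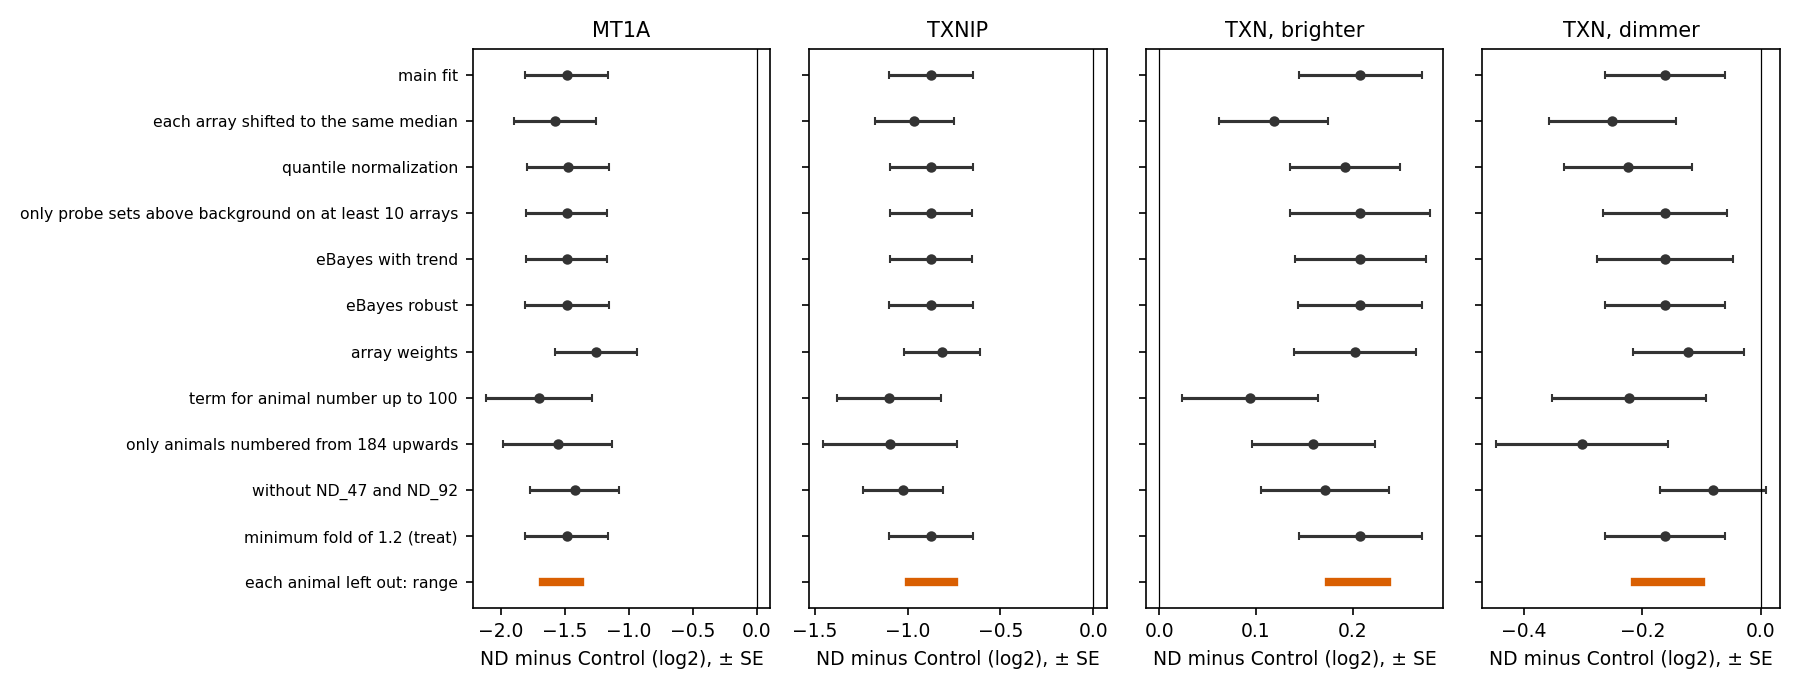
ND minus control difference (log2, ± SE) of the 4 probe sets under each way of processing, with the range over leaving out each animal in turn as an orange bar. The axes differ between panels. MT1A stayed between -1.70 and -1.26 and TXNIP between -1.10 and -0.81 in the settings drawn as points, and each TXN probe set kept its sign.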

How the data were processed

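The authors deposited log2 signals for every probe set on each array. That they are log2 was inferred from the range of the values (0.882 to 16.2). Background correction, summarization and normalization between arrays are not given in the sources used here, and they can move small differences such as that of TXN. Per the labels' protocols, 250 ng of total RNA were made into biotin-labelled cRNA.

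Of 24123 probe sets, 124 controls were set aside. Among the 23999 tested, 10069 had 1 symbol in the platform annotation, 198 had several and 13732 had none here. Each of 6765 genes was represented by its brightest probe set. Background was the highest value (2.79) of 23 bacterial and tag controls, to which no pig RNA should bind.

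Groups came from the sample titles. The comparison was fitted with limma 3.58.1 (lmFit, eBayes without trend) in R 4.3.3, with no covariate, and tested on simulated data. Permutation tests were two-sided and exact where a group had fewer than 10 animals. Genes named were the members, fixed genes of 6 lists, up to 8 passing genes per list, and the 5 most alike per member. MT-2B, MT3, FOXO1, TMX2, TMX3, TXNL4A, NR3C1, LRP2, AQP1, HNF4A, SLC7A9 and PCK1, FABP4, LPL, LEP, and the dimmer probe sets of TXNRD1, GLRX, GCLC and SLC39A1, were named after their values were seen. Members and lists were chosen with earlier results of these data known. The alternatives changed the scaling between arrays, left out dim probe sets, used other variance models or array weights, added a term for animal number, took fewer animals, or asked for a stricter threshold or a minimum fold of 1.2. Each animal was also left out in turn. No sequence is shown. The labels name no litter or day, and p-values measure only the spread between these animals.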

Additional observations from a re-analysis of the deposited data

Results flagged for a closer look

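The check by Dixon's ratio covered the members and the genes named by rule from the 6 lists. Genes named only for likeness or after their values were seen, MT3 and UBD among them, were not checked. In 72 groups of 10 animals, each checked separately, 9 had an animal far from the others by this ratio. Chance flags about 1 in 20 groups. None was a group of MT1A, TXN or TXNIP. ND_198 stood high for PRDX6 (12.85, next 12.41). ND_47 stood low for ITCH (9.43, next 9.76), for CTH (11.47, next 12.32) and for GSR (9.86, next 10.53). Control_199 stood low for CTH (12.86, next 13.50), for PER1 (9.94, next 10.43) and for KLF9 (12.23, next 13.15), and high for SGK1 (14.22, next 13.64). Control_190 stood low for CDO1 (5.81, next 7.78). Control_199 was also the lowest control for TXNIP (13.74) and for MT3 (6.12), and the next to lowest for MT1A (13.68).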

How the results depend on the processing

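MT1A kept its call in 9 and TXNIP in 8 of 11 alternatives, and both kept it with each of the 20 animals left out (MT1A -1.67 to -1.38, TXNIP -0.99 to -0.75). Among animals numbered from Control_184 upwards MT1A (-1.55) and TXNIP (-1.09) lost it, with 3 ND animals and 5 controls. With a minimum fold of 1.2 both lost it at an unchanged difference (-1.48 and -0.87; limma treat adjusted p = 0.0638 and 0.250), and at a threshold of 0.01 TXNIP did. The brighter TXN probe set passed with quantile normalization (0.19, limma adjusted p = 0.0417), and ranged from 0.18 to 0.24 with each animal left out. The dimmer never passed (-0.21 to -0.10 with each animal left out).

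Changed probe sets numbered 1712. They were 8789 with all arrays at a common median (1061 higher, 7728 lower, as the median difference moved from -0.03 to -0.12), 2115 with quantile normalization (917 higher, 1198 lower), 505 with the animal number term, 57 from Control_184 upwards, 219 with the minimum fold and 619 at the threshold of 0.01. Of 106 genes in the 6 lists 25 changed, and under the same settings except quantile normalization 39, 10, 2, 8 and 15 did. Per list, the thioredoxin count was 6 with a common median (all lower), 5 with quantile normalization, and 5 without ND_198. Over the settings other than leaving out 1 animal, counts ran from 0 to 6 for the thioredoxin list, 0 to 3 for NRF2, 0 to 5 for glutathione, 0 to 7 for metals, 0 to 4 for arrestin and glucose genes, and 2 to 17 for glucocorticoid targets.

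MT1A and TXNIP within ND had r = -0.022 with a common median and -0.0096 without ND_47 and ND_92, and -0.10 to 0.39 with each animal left out. TXN and TXNIP within ND had r = -0.23 with mean probe sets, and -0.059 to 0.46 with each animal left out. Other relations changed sign on leaving out an animal: MT1A and TXN in ND (-0.33 to 0.015), MT1A and TXNIP in controls (-0.30 to 0.45), TXN and TXNIP in controls (-0.44 to 0.22). Without the 2 animals farthest from the median, MT1A and TXNIP in controls had r = -0.21 and TXN and TXNIP in controls had r = 0.63. MT1A minus TXNIP was -0.82 to -0.50.

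Genes near 0 changed sign without passing. PRDX3 was at 0.013 with array weights, 0.027 with the number term, 0.16 from Control_184 upwards and 0.067 without ND_47 and ND_92 (-0.054 to 0.038 with each animal left out). PRDX4 was at -0.014 with a common median, -0.0013 with array weights and -0.11 with the number term. TXNRD3 was at 0.045, 0.14, 0.29 and 0.0046 under the settings named for PRDX3 (-0.16 to 0.040 with each animal left out). GCLM was at 0.20 from Control_184 upwards, and NQO1 was at -0.24 to 0.058 with each animal left out. In each case the cause was not tested. No paired analysis was possible because the groups share no animal number.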

Other observations

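The genes named for a thioredoxin-like fold (TXN, TMX, PDIA, GLRX and QSOX symbols, without TXNIP and the thioredoxin reductases), taken after values were seen, numbered 20, of which 1 fell, 1 rose and 18 did not pass (median -0.01). TMX2, a thioredoxin-related membrane protein gene, fell by 0.57 on the log2 scale (± 0.11, SE; limma adjusted p = 0.00414), and TXNL4A, a spliceosome gene, rose by 0.55 ± 0.11 (SE; limma adjusted p = 0.00509). A dimmer probe set of TMX3 differed by 0.60 (limma adjusted p = 0.00750), while the brightest differed by 0.31 and did not pass. The disulphide isomerase genes PDIA3 (-0.05), PDIA4 (-0.04) and PDIA6 (0.15) did not pass.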
